A study of Homo sapiens with 6 samples.

Results

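The regions described here are those of 5 genes that define plasma cells or read the octamer motif: IRF4, POU2F1, POU2AF1, SLAMF7 and FCRL5. A region belonged to a gene when it lay inside it, and otherwise when the gene was the nearest one. By this rule 7 of the 3838 regions in the authors' deposited table belonged to the 5 genes, and all 7 lay inside their gene. POU2F1 held 3 regions and the other 4 genes held 1 each. The assay was ATAC-seq, which reads open chromatin through the cuts that a tagging transposase makes in it. It was run on KMS-11, KMS-12 and RPMI8226, human lines of multiple myeloma, a cancer of plasma cells. All 3 are established lines, labelled as wild type in genotype and kept in the same serum-containing medium, and stand for the tumour cell without its marrow surroundings. Each line was exposed either to DMSO, the solvent, or to 1 µM JQ1 for 72 h, which gives 6 libraries with 1 per line and treatment. JQ1 displaces the BET bromodomain proteins, which read acetylated histones, from chromatin.

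IRF4 is a transcription factor that drives plasma cell differentiation and on which myeloma cells depend. POU2F1, also called OCT1, is a broadly expressed factor that binds the octamer motif of immunoglobulin promoters, and POU2AF1, also called OCA-B, is the B lineage coactivator that joins it there. SLAMF7 and FCRL5 are surface receptors of plasma cells and targets of myeloma immunotherapy. BET proteins are known to gather at enhancers of such lineage genes.

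The values are the log2 fold change of accessibility, read as JQ1 over DMSO, that the authors deposited for each line. The header of the table states neither the base of the logarithm nor the direction. The table was selected for lower accessibility: in each of its 3838 regions 2 or 3 lines, those it counts as in common, reach -0.5 or lower, and 0 regions had a value above 0. A value below 0 is therefore given by the selection and is no result about a gene. What varies is how low a region lies, in which line, and how alike the lines are. Depth is unknown, and a line has no replicate of its own. A lower value can come from fewer cells with the region open or from less opening per cell, which cannot be told apart. Neither expression nor the level of accessibility was analysed here, so the plasma cell identity of the lines was not checked against markers.

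Promoter sequences of RefSeq (GRCh38.p14, from 250 bases before to 50 after a transcription start) were available for 3 of the 5 genes, IRF4, FCRL5 and POU2F1, with 5 windows in all, a pair of which at POU2F1 lie 1 base apart. The 5 regions inside these 3 genes did not overlap the 5 windows, and the regions at SLAMF7 and POU2AF1 were not compared with a window. One of the 5 windows held the octamer, ATGCAAAT or its reverse complement ATTTGCAT, which 1.77% of all 35116 promoter windows hold on either strand. It belongs to an internal start of POU2F1 (chr1:167328820-167329119, plus strand) and is shown because it carries the motif that POU2F1 itself binds. The capitals mark the octamer, whose first base lies 179 bases before the start.
POU2F1 internal promoter: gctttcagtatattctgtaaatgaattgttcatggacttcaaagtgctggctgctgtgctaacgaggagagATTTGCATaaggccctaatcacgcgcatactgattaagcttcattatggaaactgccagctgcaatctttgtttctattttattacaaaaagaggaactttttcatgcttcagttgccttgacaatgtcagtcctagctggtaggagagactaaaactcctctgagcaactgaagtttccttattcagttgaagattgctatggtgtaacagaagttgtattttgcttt
That start lay 13.9 kb from the nearest POU2F1 region. A match describes the sequence only.

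The lowest of the 7 regions lay inside POU2F1, and it was low to nearly the same extent in every line. This region (chr1:167264170-167264449, 280 bp) had a KMS-11 value of -1.60, a KMS-12 value of -1.43 and an RPMI8226 value of -1.58 in the authors' deposited table. The mean was -1.53 ± 0.09 (SD, n = 3 lines), a JQ1 to DMSO ratio of 0.345. Its mean ranked 20 among the 3838 regions, lowest first. Its least changed line, KMS-12, was lower than the least changed line of any other region of the table, which was seen after the values were known. The next regions in that order were at ATP6V1E2, where the least changed line stood at -1.35, and at RAB43, at -1.32. Values at or below -1 in all 3 lines were found in 39 regions (1.02%). Its SD was the 128th smallest of the 3838 SDs, against a median SD of 0.371.

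The same POU2F1 region was low in RPMI8226 relative to the other regions of that line, with 1.69% of them lower. In KMS-11 2.996% of regions were lower and in KMS-12 10.6%. Its value recurred exactly in 2 regions of KMS-11, 12 of KMS-12 and 2 of RPMI8226, the region itself included. By limma, fitted over all regions with the 3 lines as replicates, the mean had a standard error of 0.262 and a Benjamini-Hochberg adjusted p of 9.53e-07. At an adjusted p under 0.05, 87.5% of all regions were called lower, which follows from the selection of the table, so nothing is read from the calls given here. The mean without 1 line lay between -1.59 and -1.50. It could not lie above -1.43, the value of the least changed line, and nothing is read from the call that it kept.

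The other 2 regions inside POU2F1 were less low and uneven across lines. The first along the chromosome (chr1:167252950-167253775, 826 bp) had a KMS-11 value of -0.95, a KMS-12 value of -0.36 and an RPMI8226 value of -0.81 in the authors' deposited table, a mean of -0.71 ± 0.31 (SD, n = 3 lines). The third (chr1:167342940-167343118, 179 bp) had a KMS-11 value of -0.93, a KMS-12 value of -0.07 and an RPMI8226 value of -0.72 in the authors' deposited table, a mean of -0.57 ± 0.45 (SD, n = 3 lines). In both, KMS-12 was the least changed line, with 84.1% and 96.2% of its regions lower. The lowest region lay 10.4 kb beyond the first and 78.5 kb before the third. The lowest and the first also lie inside a noncoding RNA gene, LOC124900412, that overlaps POU2F1, so they may belong to either gene. The distance from the first listed POU2F1 start was 32.1 kb for the first region and 43.3 kb for the lowest.

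Within each line the lowest POU2F1 region was below the other 2. On the log2 scale the lowest minus the first was -0.83 ± 0.22 and the lowest minus the third -0.96 ± 0.36 (SD, n = 3 lines each), with that sign in 3 of 3 lines. The exact two-sided sign-flip permutation p was 0.25 for each, the smallest that 3 lines allow, and 0.55 after Benjamini-Hochberg adjustment over 11 pairs. The lowest region was picked by its mean over these same values, so the sign of each mean difference was set by that choice. Nothing is read from these p-values. At least 3 regions were found in 108 of the 3219 genes with a region (3.36%). Among these 108 genes the gap between the lowest and the highest region mean, 0.963 in POU2F1, ranked 3 from the widest, with a median of 0.373. Regions of 1 gene share its locus and are not independent. The limma adjusted p was 0.0140 for the first region and 0.0369 for the third. Without KMS-11 these became 0.132 (mean -0.59) and 0.278 (-0.39), and without RPMI8226 0.0691 (-0.65) and 0.146 (-0.50). Without KMS-12, the least changed line, they were 0.00963 (-0.88) and 0.0150 (-0.82).

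**Figure D1:**
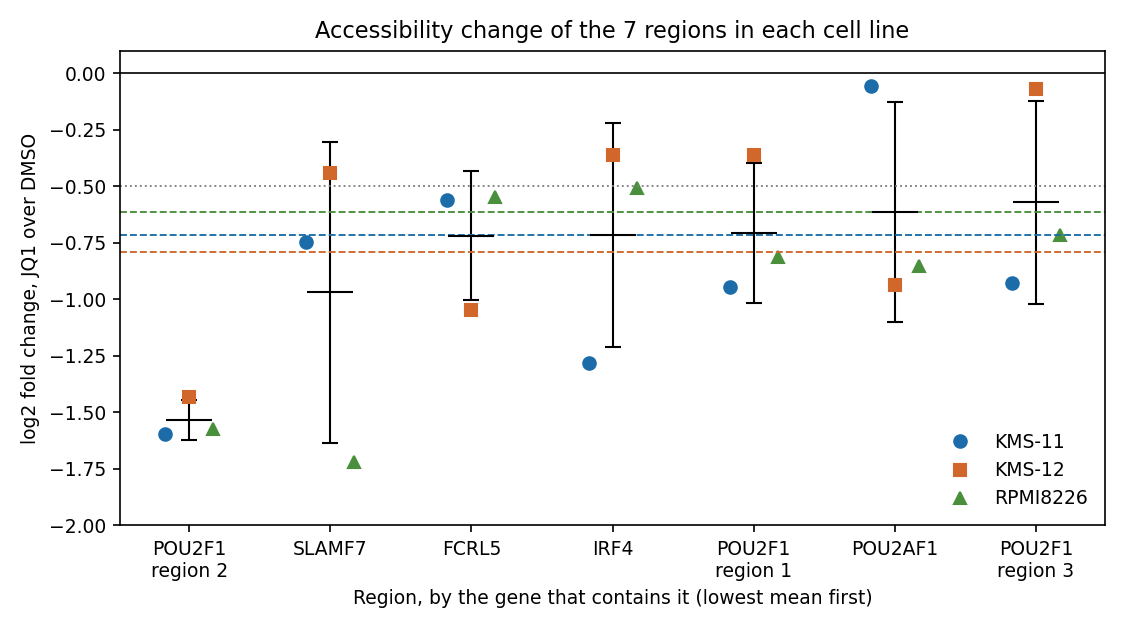
Log2 fold change (JQ1 over DMSO, y axis) of the 7 regions (x axis, lowest mean first) in each cell line, with POU2F1 regions numbered along the chromosome. Black bars show the mean ± SD over 3 lines, dashed lines each line's median over 3838 regions and the dotted line -0.5. POU2F1 region 2 sits between -1.60 and -1.43 in all 3 lines, whereas SLAMF7 is carried by RPMI8226 (-1.72) and IRF4 by KMS-11 (-1.28).

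**Figure D2:**
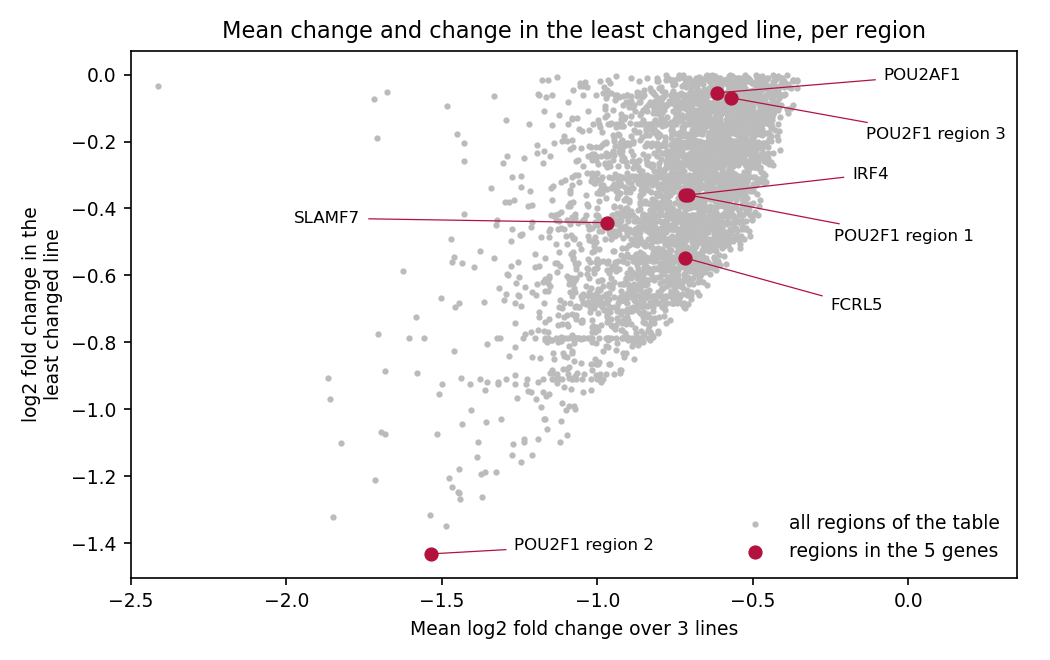
Mean log2 fold change over 3 lines (x axis) against the value in the least changed line (y axis) for all 3838 regions (grey) and the 7 regions of the 5 genes (red). POU2F1 region 2 has the lowest value on the y axis (-1.43), and POU2AF1 and POU2F1 region 3 lie near 0 on it (-0.05 and -0.07).

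At POU2AF1 the region was low in KMS-12 and RPMI8226, with a value close to 0 in KMS-11. The region (chr11:111376501-111376845, 345 bp) lay 2.43 kb inside the higher-coordinate end of the gene. In the authors' deposited table KMS-11 stood at -0.05, KMS-12 at -0.94 and RPMI8226 at -0.85, so that 97.8% of the KMS-11 regions were lower. The mean was -0.61 ± 0.49 (SD, n = 3 lines). It was the one region of the 7 in which KMS-11 was the least changed line. The limma adjusted p was 0.0272, and it was 0.141 without KMS-12 (mean -0.45) and 0.149 without RPMI8226 (-0.50). Without KMS-11 it was 0.0377 (-0.89).

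At higher coordinates than POU2AF1 lay a pair of regions inside its neighbour BTG4, an antiproliferative gene best known for its role in oocytes. They had another order of lines. The nearer (chr11:111387416-111387682), 8.14 kb from the higher-coordinate end of POU2AF1, had a KMS-11 value of -1.33, a KMS-12 value of -0.42 and an RPMI8226 value of -0.54 in the authors' deposited table. The farther (chr11:111409951-111410262), at 30.7 kb, had a KMS-11 value of -0.69, a KMS-12 value of -0.42 and an RPMI8226 value of -1.75 in the authors' deposited table. KMS-12, the lowest line at POU2AF1, was thus the least changed line in both BTG4 regions. The KMS-11 values of these regions recurred in 60 and 100 regions of the table, whereas that of the POU2AF1 region was held by 1, itself. Their KMS-12 value was the same in both BTG4 regions and was held by 45 regions, against 8 for that of the POU2AF1 region. Over all regions, 41.3% of KMS-11 values, 52.3% of KMS-12 values and 7.58% of RPMI8226 values were held by at least 10 regions. Whether such recurrence reflects few reads was not tested. The remaining region within 500 kb, inside ALG9, an enzyme of N-glycan assembly, had a mean of -0.79 ± 0.34 (SD, n = 3 lines).

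IRF4 held 1 region, in which KMS-11 was the lowest line. The region (chr6:399773-400323, 551 bp) lay 8.02 kb beyond the listed start of IRF4, in a gene of 19.7 kb. In the authors' deposited table KMS-11 stood at -1.28, KMS-12 at -0.36 and RPMI8226 at -0.51. Only 10.2% of the KMS-11 regions were lower, against 84.1% in KMS-12 and 67.1% in RPMI8226. None of the 3 values recurred in another region. The mean was -0.72 ± 0.50 (SD, n = 3 lines), close to the median of all region means, -0.71. The limma adjusted p was 0.0130, and 0.239 without KMS-11 (mean -0.43). It was 0.00875 without KMS-12 (-0.89) and 0.0294 without RPMI8226 (-0.82).

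One further region lay within 500 kb of IRF4, inside EXOC2, a subunit of the exocyst (chr6:491173-491759, 79.7 kb away). It had a KMS-11 value of -0.14, a KMS-12 value of -0.95 and an RPMI8226 value of -0.89 in the authors' deposited table, the reverse of the order at IRF4, where KMS-11 was lowest. The pattern of the EXOC2 region was close to that of the POU2AF1 region, with KMS-11 near 0 in each.

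SLAMF7 had the second lowest mean of the 7 regions, and RPMI8226 carried it. The region (chr1:160739116-160739463, 348 bp) began 59 bp inside the lower-coordinate end of the gene. In the authors' deposited table KMS-11 stood at -0.75, KMS-12 at -0.44 and RPMI8226 at -1.72. The RPMI8226 value was the lowest single value among the 7 regions, with 0.808% of the regions of that line lower, and no other region shared it. In KMS-11 47.1% and in KMS-12 81.4% of regions were lower. The mean was -0.97 ± 0.67 (SD, n = 3 lines), a ratio of 0.511. The limma adjusted p was 0.00150, and 0.0927 without RPMI8226 (mean -0.59). It was 0.0160 without KMS-11 (-1.08) and 0.000469 without KMS-12 (-1.23).

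No other gene of the SLAM cluster around SLAMF7 was assigned a region. The neighbours within 500 kb were regions inside F11R, a junctional adhesion molecule (242 kb away), and FCER1G, a signalling chain of Fc receptors (462 kb away). Their means were -0.51 ± 0.13 and -0.48 ± 0.11 (SD, n = 3 lines each), with limma adjusted p of 0.0561 and 0.0687. In the authors' deposited table RPMI8226 stood at -0.39 in F11R and -0.57 in FCER1G, against -1.72 at SLAMF7.

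FCRL5 was lowest in KMS-12, which was the least changed line in 5 of the 7 regions. Its region (chr1:157534741-157535127, 387 bp) lay 17.4 kb from the listed start of the gene, on the minus strand. In the authors' deposited table KMS-11 stood at -0.56, KMS-12 at -1.05 and RPMI8226 at -0.55, and all 3 lines were counted as sharing it. The mean was -0.72 ± 0.29 (SD, n = 3 lines). These values recurred exactly in 16, 20 and 14 regions of the 3 lines, the region itself included. The limma adjusted p was 0.0127, and it was 0.0568 without KMS-11 (mean -0.80) and 0.0814 without KMS-12 (-0.55). Without RPMI8226 it was 0.0325 (-0.80).

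Of the 8 genes of the FCRL family, which encode Fc receptor-like proteins of B lineage cells, 4 had a region, all in the cluster next to FCRL5. The region at FCRL4 (chr1:157598036-157598588) had the lowest mean of them, -1.14 ± 0.68 (SD, n = 3 lines). It had a KMS-11 value of -1.41, a KMS-12 value of -0.37 and an RPMI8226 value of -1.65 in the authors' deposited table. It covered all 300 bases of the FCRL4 promoter window (chr1:157598036-157598335, minus strand, GRCh38.p14, RefSeq), which is shown for that reason and holds 0 octamers.
FCRL4 promoter: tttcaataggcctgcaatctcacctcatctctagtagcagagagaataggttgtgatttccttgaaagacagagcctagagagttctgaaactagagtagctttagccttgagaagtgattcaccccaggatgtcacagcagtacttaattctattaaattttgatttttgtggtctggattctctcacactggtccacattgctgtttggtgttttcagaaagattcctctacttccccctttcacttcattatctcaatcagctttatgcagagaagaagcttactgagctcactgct
FCRL3 had a region 3.94 kb away (chr1:157704893-157705186, -0.69 ± 0.40) and FCRL2 one 5.71 kb away (chr1:157739560-157740027, -0.48 ± 0.44; SD, n = 3 lines each). By the authors' deposited table RPMI8226 stood at -0.67 in the FCRL3 region and at -0.03 in the FCRL2 region. The KMS-12 values of the authors' deposited table were -0.31 at FCRL3 and -0.91 at FCRL2. The KMS-11 and KMS-12 values at FCRL3 recurred in 109 and 87 regions. The 4 regions thus had no common order of lines: KMS-12 was lowest at FCRL5 and FCRL2 and least changed at FCRL4 and FCRL3. By limma the regions of FCRL4, FCRL5 and FCRL3 were called (adjusted p of 0.000258, 0.0127 and 0.0156) and that of FCRL2 was not (0.0688). Among all regions 87.5% were called. The median of the 4 means was -0.71, the same as over all regions to 2 decimals. The lowest mean within 500 kb of FCRL5 belonged to a region inside the noncoding gene LOC105371456 (chr1:157269684-157269949), at -1.32 ± 0.56 (SD, n = 3 lines).

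**Figure D3:**
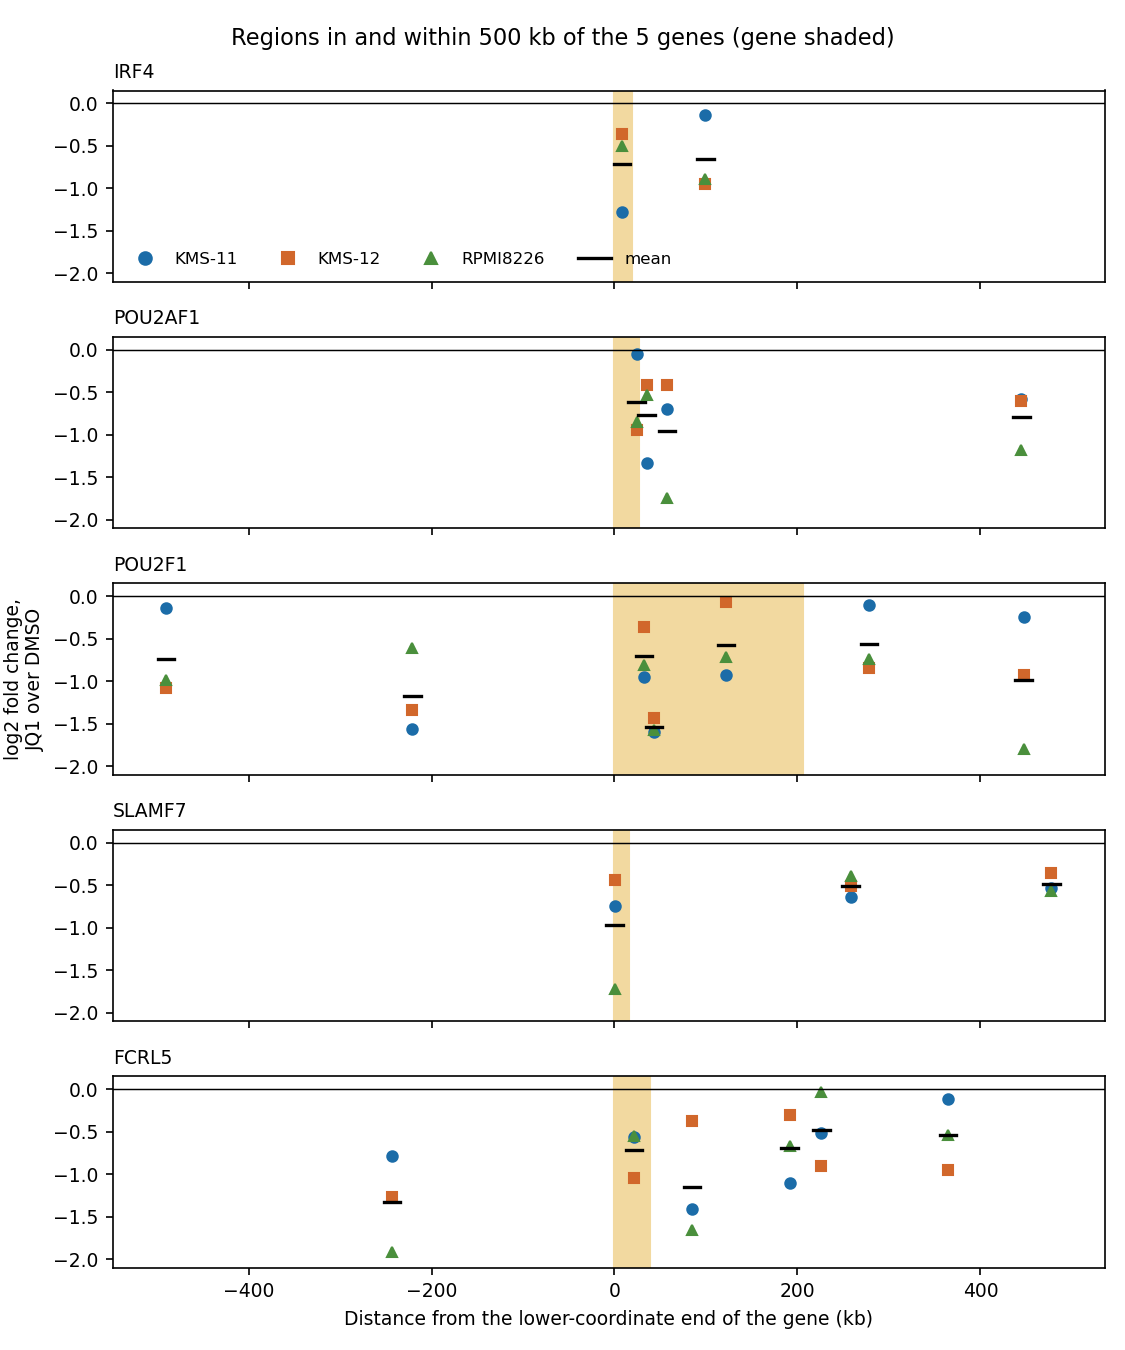
Log2 fold change (JQ1 over DMSO, y axis) of every region in or within 500 kb of each gene, against the distance from the lower-coordinate end of the gene in kb (x axis). Symbols are cell lines, black bars the mean over 3 lines and shading the gene. KMS-11 is lowest at IRF4 (-1.28) and near 0 at POU2AF1 (-0.05), and the 3 lines coincide at the lowest POU2F1 region.

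Around POU2F1, 4 further regions lay within 500 kb. The lowest of these 4 was inside MAEL, a gene of the piRNA pathway of germ cells (-1.17 ± 0.50), followed by RCSD1 (-0.99 ± 0.78), POGK (-0.73 ± 0.52) and CD247 (-0.56 ± 0.40; SD, n = 3 lines each). CD247 encodes the zeta chain of the T cell receptor and its region lay 71.9 kb from POU2F1. In the CD247, POGK and RCSD1 regions KMS-11 was the least changed line in the authors' deposited table (-0.10, -0.14 and -0.24), unlike in any POU2F1 region.

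Line by line, the 7 regions differed in which line changed least. KMS-12 was the least changed line in 5 of the 7 regions, while it was so in 26.8% of all regions of the table. At -0.5 or lower were 3 of the 7 regions in KMS-12, where 79.5% of all regions were. The corresponding counts were 6 of 7 in KMS-11 (77.4% of all regions) and 7 of 7 in RPMI8226 (67.8%). The rule that 2 or 3 lines reach -0.5 ties these counts to each other, and 3 of the 7 regions share the POU2F1 gene. Over the 7 regions the KMS-11 values of the authors' deposited table had a median of -0.93, the KMS-12 values of -0.44 and the RPMI8226 values of -0.81, beside medians of -0.71, -0.79 and -0.61 over all regions. No test between lines was possible with 1 library per line and treatment. The regions of POU2F1 (the lowest) and FCRL5 were shared by 3 lines, 28.6% of the 7, and 24.8% of all regions were.

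The order of the 7 means, from the lowest, was POU2F1 region 2, SLAMF7, FCRL5, IRF4, POU2F1 region 1, POU2AF1 and POU2F1 region 3. The difference between POU2F1 region 2 and SLAMF7, -0.57 ± 0.62 (SD, n = 3 lines; exact two-sided sign-flip permutation p = 0.5), was smaller than its spread, since SLAMF7 was lower in RPMI8226. No other pair of neighbours in the order differed beyond its spread, with differences between -0.25 and -0.003 and SDs between 0.32 and 0.89. POU2F1 region 2 was below FCRL5, IRF4 and POU2AF1 in 3 of 3 lines, by differences of -0.82 ± 0.37, -0.82 ± 0.44 and -0.92 ± 0.55 (SD, n = 3 lines; exact sign-flip permutation p = 0.25 each, 0.55 adjusted over 11 pairs). The order was made from these same means, so the sign of every mean difference follows from it. The differences and their spread are a description.

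All 7 regions passed limma as lower (Benjamini-Hochberg adjusted p under 0.05), as did 87.5% of all regions. When each line was centred on its own median over all regions, with medians from -0.79 to -0.61, 0 of the 7 regions and 13 of 3838 were called by limma. At an unadjusted p under 0.05 the centred fit had 1 of the 7 and 128 of all regions lower. Relative to these medians POU2F1 region 2 lay at -0.83 and SLAMF7 at -0.26. FCRL5, IRF4 and POU2F1 region 1 lay at -0.01, -0.01 and -0.0004, and POU2AF1 and POU2F1 region 3 at 0.09 and 0.13. By rank of the uncentred mean, lowest first, SLAMF7 stood at 555 of 3838, FCRL5, IRF4 and POU2F1 region 1 at 1847, 1863 and 1927, POU2AF1 at 2684 and POU2F1 region 3 at 3046. FCRL5, IRF4 and POU2F1 region 1 were thus near the middle of the table, and POU2AF1 and POU2F1 region 3 were less low than most regions.

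**Figure D4:**
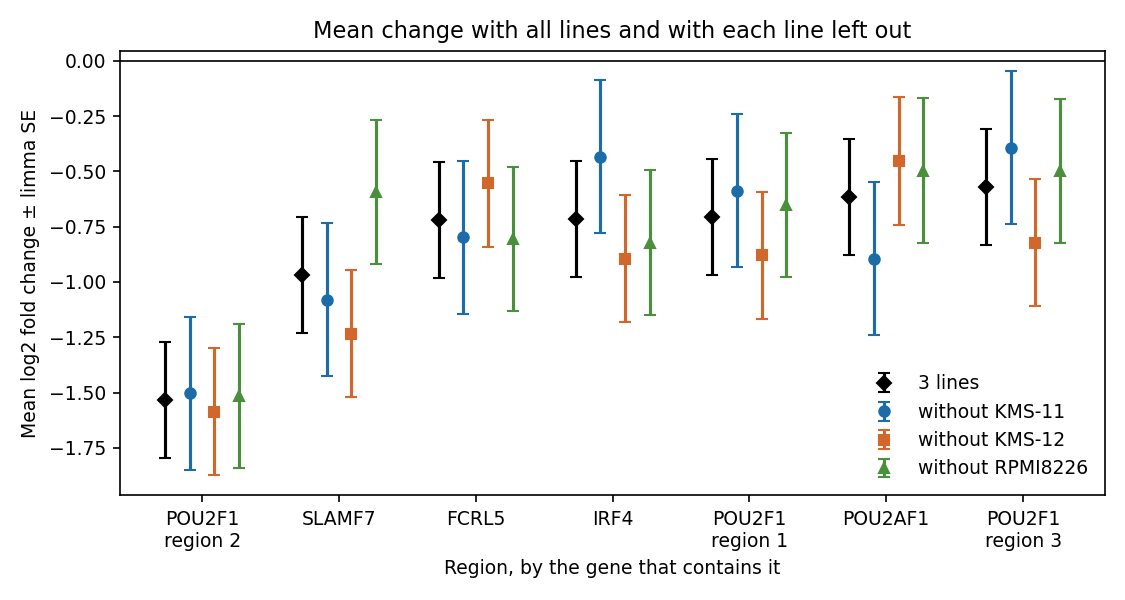
Mean log2 fold change ± limma standard error (y axis) of the 7 regions (x axis) with 3 lines and with each line left out. POU2F1 region 2 stays between -1.59 and -1.50, whereas SLAMF7 moves to -0.59 without RPMI8226 and IRF4 to -0.43 without KMS-11.

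Regions of other protein-coding genes with the most similar values were sought by the Euclidean distance of the 3 line values on the log2 scale, over 3 lines. Closest to the lowest POU2F1 region were TMEM200C, ALPK1 and ATP6V1E2, at distances of 0.208, 0.230 and 0.243. All the other 6 regions had a closer neighbour, at 0.012 to 0.077. For IRF4 these were HDAC4, a histone deacetylase (0.077), BTG4 (0.082) and CACNA2D3 (0.109). For SLAMF7 they were the other BTG4 region (0.065), FAM89A (0.134) and CSRP2 (0.142). The IRF4-like and SLAMF7-like BTG4 regions are the pair beside POU2AF1 described above. FCRL5 was closest to MAPK10 (0.012), KRT8 (0.035) and CCNL1 (0.055), and POU2AF1 to CCDC141 (0.068), PAN3 (0.070) and FYB1 (0.089). POU2F1 region 1 was closest to CDK14, FRMPD1 and PHC3 (0.076, 0.086 and 0.109), and region 3 to RHOQ, PTPN2 and FGF14 (0.037, 0.056 and 0.064). The regions named for HDAC4, FAM89A and CCNL1 lay 38.2, 18.5 and 8.02 kb outside these genes. The HDAC4, BTG4 and CACNA2D3 regions close to IRF4 had the same KMS-11 value, -1.33, which recurred in 60 regions. Those of HDAC4 and BTG4 also shared the KMS-12 value of -0.42, which recurred in 45 regions. With 3 values per region such likeness is a description.

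Relatives and partners of the 5 genes were counted by list, beside the 10.3% of all protein-coding genes (2063 of 20052) that were assigned a region. The number of genes with a region in lists of this size is not read as a result. By limma 87.5% of all regions were lower. Of 20 plasma cell identity genes 6 had 1 region each, and 6 of 6 were lower by limma. Beside the 4 already described these were CD28, a costimulatory receptor (-0.76 ± 0.52, 48.1 kb away), and the adhesion gene CADM1 (-0.65 ± 0.46, 13.6 kb away; SD, n = 3 lines each). The KMS-12 value at CD28 recurred in 213 regions and the KMS-11 value at CADM1 in 56. The median of the 6 means was -0.72, beside -0.71 over all regions. Genes of that list without a region included PRDM1 and XBP1, which drive secretory differentiation, and the surface markers SDC1, CD38 and TNFRSF17. Regions of these 5 genes that rose or stayed level were not analysed here.

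Of 18 POU factors and octamer coactivators 2, POU2F1 and POU2AF1, had regions, 4 in all, with a median mean of -0.66. By limma 4 of 4 were lower, as were 87.5% of all regions. POU2F2, the B lineage octamer factor, had none. Of 12 genes of the IRF family, counting the IRF2-binding corepressors, 3 had 1 region each, with a median mean of -0.72. By limma 3 of 3 were lower, beside the same 87.5% of all regions. Regions 1.79 kb from IRF2BPL (-0.76 ± 0.43) and 2.42 kb from IRF2BP2 (-0.69 ± 0.58; SD, n = 3 lines each) resembled IRF4 in that KMS-11 was lowest. RPMI8226 was the least changed line of the authors' deposited table at IRF2BPL (-0.27) and IRF2BP2 (-0.06), whereas KMS-12 was at IRF4. Of 13 partners and regulators of IRF4, among them SPIB, BATF, IKZF1 and IKZF3, 0 had a region.

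Of 11 genes of the SLAM family and its adaptors 2 had a region, with a median mean of -0.78. By limma 2 of 2 were lower, as were 87.5% of all regions. The second gene was SH2D1B, an adaptor of SLAM receptors (10.99 kb away, -0.60 ± 0.26, SD, n = 3 lines), whose KMS-11 and KMS-12 values recurred in 178 and 87 regions. Of 18 marker genes of T, NK and myeloid cells 3 had regions, 4 in all with a median mean of -0.60. By limma 3 of 4 were lower, beside the same 87.5% of all regions. The 3 genes were CSF1R, a myeloid receptor (-0.74 ± 0.55), NCAM1, an NK cell adhesion molecule that myeloma cells often express as well (-0.63 ± 0.41 and -0.49 ± 0.40), and CD247 (SD, n = 3 lines each). All list medians lay between -0.78 and -0.60, around the -0.71 of all regions.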

How the data were processed

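Per region, the authors deposited a log2 fold change for each of 3 cell lines, in 1 table, and the number of lines in common. Among the authors' tools, MACS2 and DESeq2 are named, without role or version, per the submitters' processing notes, which give the build as hg38 and GRCh38.p13. How reads were aligned, filtered, shifted for the transposase and scaled, and how peaks were called, is not given in the sources used here. Values were read as base 2, the base in which the authors' tool DESeq2 gives folds, and as JQ1 over DMSO, the treatments in the labels. The series' design text speaks of duplicates and RNA-seq, while the labels give 1 ATAC-seq library per line and treatment. No counts were given, so depth and counting error are unknown.

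Regions were assigned with the RefSeq gene table (GRCh38.p14) to the gene containing them, protein-coding genes preferred, otherwise to the nearest, among 20052 protein-coding and 18330 lncRNA genes. The table of genes served for names and distances. Coordinates of regions are the authors'. limma (version 3.58.1, R 4.3.3) tested each mean over lines against 0 on all 3838 regions, with Benjamini-Hochberg adjustment and a threshold of 0.05. Its prior degrees of freedom were infinite, so that every region had 1 standard error. The lines serve as replicates, and the spread between lines is pooled over all regions. A limma p-value thus follows from the mean of a region alone, not from its own spread between lines. Simulated data of 3838 regions had the pooled spread of the table, with 3688 regions at 0. Of the 50 regions simulated at each log2 fold change, limma called 14% at -0.5, 68% at -1 and 100% at -2. The adjusted threshold depends on the share of regions called, 87.5% in the real table. These shares therefore do not give the power of limma on the real table. The 5 genes, the gene lists and the rules were chosen with earlier results of these data known. Named were all 7 regions, every region within 500 kb, list genes with a region, and the 3 most similar protein-coding genes per region. Alternatives were each line left out, the median over lines, centred lines, another prior, a level of -1 and protein-coding genes only.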

Additional observations from a re-analysis of the deposited data

How the results depend on the processing

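The limma count of 7 regions was 3 to 5 with 1 line left out, and the count over all regions, 3359, was 1310 to 2112. Fewer lines raise the standard error by construction. With each line centred on its median the counts were 0 and 13 (1 of the 7 at an unadjusted p under 0.05). The cause is the shift itself, which also turned the means of POU2AF1 (0.091) and POU2F1 region 3 (0.13) above 0. Of the 21 values, 16 were at or below -0.5 and 6 at or below -1, which is the stricter level itself. Over all regions 77.4% of KMS-11, 79.5% of KMS-12 and 67.8% of RPMI8226 values were at or below -0.5. The share of all values at or below -1 was not counted, so nothing is read from either count. Assignment among protein-coding genes only gave the same counts, 7 and 16. A prior with a trend and a robust fit called 7 of the 7 and 3829 of all regions. For POU2F1 region 2 this prior gave a limma standard error of 0.484, beside 0.262. The adjusted p of that region became 0.00948, beside 9.53e-07, so the smaller p depends on the prior. SLAMF7, FCRL5, IRF4, POU2F1 region 1 and POU2AF1 had the same limma adjusted p of 0.00948 under this prior. It therefore does not tell these regions apart. With the trend the variance follows the mean of a region, so the standard error differs with how low a region lies. The use of this prior on all regions and on single means, and the centring of single means, were chosen after seeing the data. The median over lines was less low than the mean at SLAMF7 (-0.75 beside -0.97), FCRL5 (-0.56 beside -0.72) and IRF4 (-0.51 beside -0.72). It was lower than the mean at POU2AF1 (-0.85 beside -0.61) and at all 3 POU2F1 regions. Each deposited value already pairs the DMSO and JQ1 libraries of 1 line, so the limma test against 0 is paired by line. Separate libraries could not be compared, because no counts were given. Depth is unknown, so whether a value near 0 reflects no change or too few reads to show one cannot be told.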
